A study of Mus musculus with 6 samples.

Results

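The STAT family of transcription factors was examined in activated group 2 innate lymphoid cells (aILC2s) that had been cultured with or without melatonin. The members were taken by gene symbol, *Stat2*, *Stat3*, *Stat4*, *Stat5a*, *Stat5b* and *Stat6*, and all 6 were found among the 16381 genes of the table and passed the filter on low values. The aILC2s came from the lungs of wild type BALB/c mice, described as female and 6 to 8 weeks old, that had received 0.5 µg of IL-33 intranasally per day for 3 days. Sorted cells were then cultured for 24 h with 250 µM melatonin (n = 3) or with its solvent DMSO as vehicle (n = 3), so that IL-33 exposure was common to both groups and melatonin in culture was the labelled difference. No source says whether the 3 samples of a group came from separate mice or pools, and the p-values therefore measure the spread between these samples. Sex-linked transcripts, given below, also differed between the groups.

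STAT proteins are latent factors that carry a cytokine signal from the membrane to the nucleus. A cytokine brings its receptor chains together, Janus kinases bound to those chains phosphorylate a tyrosine on the STAT protein, and paired STAT proteins enter the nucleus and bind DNA. STAT5A and STAT5B act downstream of IL-2, IL-7, IL-9 and TSLP, and STAT6 downstream of IL-4 and IL-13. STAT3 acts downstream of the IL-6 family, IL-10 and IL-21, STAT4 downstream of IL-12, and STAT2 downstream of the interferons. What was measured here is the RNA of each factor and not its phosphorylation.

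The libraries held between 17056221 and 20511765 estimated counts, and a STAT gene had between 790 and 9704 of these in a sample. All 16 ILC2 markers examined were present, with a summed level of 209426 to 224143 normalized counts in vehicle and 146980 to 166706 in melatonin samples. Of these markers 9 were called lower and 3 higher in limma, beside 24.7% and 24.5% of all genes tested, with a median log2 fold change of -0.59. *Thy1* (-2.88) and *Klrg1* (-2.16) were among those lower and *Calca* (3.22) among those higher. Normalized counts are the deposited values, in which counts per gene had been divided by a size factor for each sample. Marker sums for other cells were far lower, and T cell markers (5 of 9 listed, with *Cd4*, *Cd5*, *Cd8a* and *Cd8b1* not listed) summed to 5118 to 5544 in vehicle and 1750 to 2451 in melatonin samples. Macrophage and dendritic cell markers (7 of 10 listed) summed to 1406 to 1593 and 364 to 829, and NK and ILC1 markers (4 of 5 listed) to 203 to 266 and 19.6 to 30.6. B and plasma cell markers (3 of 6 listed, with *Ms4a1* and *Pax5* among those not listed) summed to 322 to 355 and 131 to 162, stromal and endothelial markers (2 of 7 listed) to 1008 to 1069 and 310 to 416, and the sum of granulocyte and mast cell markers (5 of 9 listed) overlapped between the groups at 18.7 to 87.7 and 1.87 to 38.2. The sum of epithelial markers (7 of 8 listed) also overlapped, at 941 to 2325 and 1058 to 1261, but its members moved apart: 4 of 6 tested were called lower at an adjusted p of 0.05 in limma, beside 24.7% of all genes tested, among them *Sftpc* (155, 122 and 389 in vehicle and 6.54, 5.46 and 3.02 in melatonin samples), and 1, *Epcam*, was called higher, beside 24.5% (667 ± 67.6 and 1097 ± 116, SD, n = 3 each). The part of these cells in the STAT results was not tested, and in bulk RNA fewer cells of a type and less RNA per cell cannot be told apart. Although the mice are described as female, transcripts of Y-linked genes were present in the 3 vehicle samples and in melatonin replicate 1 (2554 to 3253 estimated counts) and were at 0 in melatonin replicates 2 and 3. *Xist*, the RNA of the inactive X chromosome, stood at 530 and 1086 estimated counts in these 2 libraries and at 0 to 14.5 in the other 4, so the groups were not balanced for sex-linked transcripts. Melatonin replicates 2 and 3 therefore did not come from the same mice as the other 4 libraries. With only the 4 libraries that held Y-linked transcripts, the log2 fold changes were 1.17 for *Stat2*, 1.21 for *Stat4*, 0.64 for *Stat6*, 0.41 for *Stat3*, -0.33 for *Stat5b* and -0.68 for *Stat5a*. Melatonin replicate 1 was the only melatonin sample in this fit, so these are effect sizes without a test. Melatonin replicate 1 also lay apart from the other melatonin samples on the second principal component, which held 16.0% of the variance.

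Melatonin was accompanied by higher *Stat2*, *Stat4*, *Stat6* and *Stat3* RNA and by lower *Stat5b* RNA, and *Stat5a* was lower without passing the test. The increases ran from 2.15-fold for *Stat2* to 1.25-fold for *Stat3*, and the decrease of *Stat5b* was to 0.825 of the vehicle level. In limma's test, 4 of the 6 genes were called higher, against 24.5% of the 14419 genes tested, and 1 was called lower, against 24.7%, so that 5 of 6 were called beside 49.2% of all genes. The number called lower was 0 without vehicle replicate 2 or 3 and 2 without melatonin replicate 3. With so large a share of all genes called, the number of STAT genes called is less informative than which of them moved and how far. In each of the 6 genes the groups did not overlap, as in 60.4% of all genes, with all melatonin values above all vehicle values in 4 (30.0% of all genes) and below in 2 (30.3%). The exact two-sided permutation test gave p = 0.1 for each, which is the smallest that 3 samples against 3 allow.

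**Figure D1:**
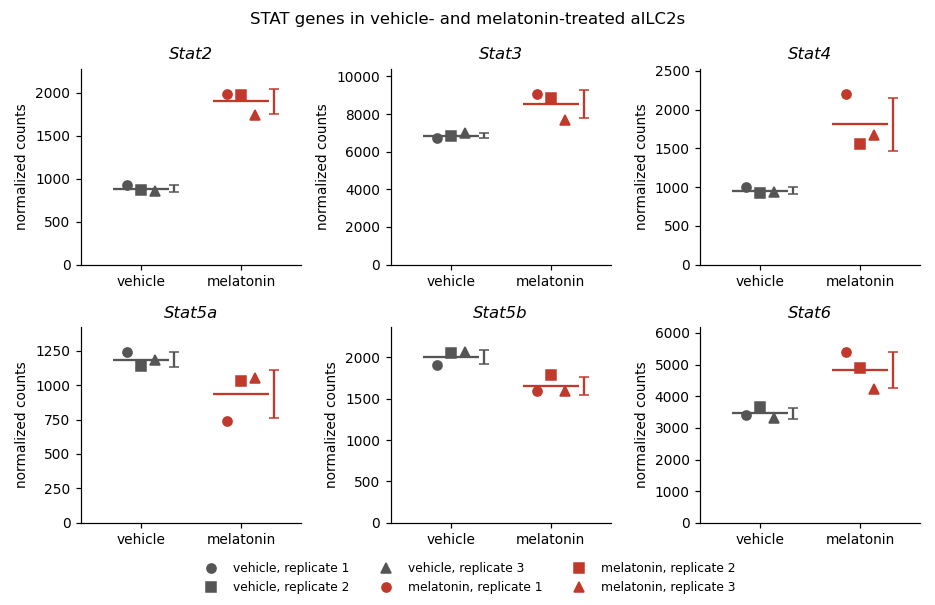
Normalized counts (vertical axis, from 0, with its own scale in each panel) of the 6 STAT genes in the 3 vehicle and 3 melatonin samples. Each symbol is a sample, the horizontal line is the group mean and the bar beside it spans 1 SD on each side. The melatonin samples lie above the vehicle samples for Stat2, Stat3, Stat4 and Stat6 and below them for Stat5a and Stat5b.

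*Stat2*, which joins the interferon-activated complex with IRF9, showed the largest change of the family. It lies on chromosome 10 of GRCm39 from 128106352 to 128128735 on the plus strand and its canonical transcript has 24 exons. Its normalized counts were 932, 864 and 859 in vehicle replicates 1, 2 and 3 and 1985, 1976 and 1737 in melatonin replicates 1, 2 and 3. Every melatonin value was thus well above the highest vehicle value of 932. The mean rose from 885 ± 41.0 (SD, n = 3) to 1900 ± 141 (SD, n = 3), a log2 fold change of 1.10 (SE 0.09, 95% interval 0.90 to 1.30, adjusted p = 5.9e-05 in limma). A larger rise was fitted for 886 of the genes tested, which places *Stat2* at percentile 93.8 of signed change.

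*Stat4*, the factor of IL-12 signalling that is used by NK cells and by lymphocytes making interferon gamma, had the next largest rise. It lies on chromosome 1 from 52026307 to 52151423 on the plus strand. Its normalized counts were 1001, 928 and 931 in the vehicle samples and 2200, 1554 and 1673 in the melatonin samples. The groups were separate, but the melatonin samples were spread over a wider range, with replicate 1 highest. The mean rose from 953 ± 41.5 to 1809 ± 344 (SD, n = 3 each), a log2 fold change of 0.91 (SE 0.13, 95% interval 0.62 to 1.20, adjusted p = 0.00064 in limma), and it was 0.76 without melatonin replicate 1. The markers of NK and ILC1 cells, which also use STAT4, were lower in the melatonin samples, with sums of 19.6 to 30.6 against 203 to 266. Of the 8013 stretches of 50 bases in the *Stat4* transcript, 840 also occur on the same strand in the noncoding gene *Gm28177*, so reads from these could be assigned to either gene. *Gm28177* stood at 22.0 ± 4.70 normalized counts in vehicle and 34.4 ± 16.6 in melatonin samples (SD, n = 3 each), far below *Stat4*, and its groups overlapped. Antisense *Gm31812*, whose exons cover 2558 of these stretches, stood at 4.24 ± 1.27 and 6.37 ± 1.45, and the library kit does not mark the strand.

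The promoters of these 2 genes are shown because both hold the letters of the interferon-stimulated response element, the DNA sequence bound by the complex of STAT2 and IRF9. The letters searched were GAAA, any 2 bases and GAAA again, on both strands of the 300 bases from 250 before to 50 after each canonical transcript start. They occurred in 3.84% of 21770 promoters of protein-coding genes. Among the STAT genes they were found in *Stat2* and *Stat4* and in no other member. The 250 bases before the *Stat2* start, chr10:128106102-128106351 of GRCm39 on the plus strand, have a GC content of 57.2%, beside a median of 53.2% over all promoters. The capitals mark the response element, which here lies on the minus strand and therefore reads TTTCAGTTTC (positions -207 to -198 from the start), and a STAT6-type site, TTC and GAA with any 4 bases between them, at positions -195 to -186.
Stat2: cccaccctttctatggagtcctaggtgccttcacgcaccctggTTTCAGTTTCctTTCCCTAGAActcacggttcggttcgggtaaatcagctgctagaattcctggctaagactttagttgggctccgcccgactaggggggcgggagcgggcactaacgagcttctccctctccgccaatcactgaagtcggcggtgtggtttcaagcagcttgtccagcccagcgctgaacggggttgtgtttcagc

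In *Stat4* the element, in capitals below with 10 bases on each side, lies on the plus strand at chr1:52047302-52047311, positions -100 to -91 from the canonical start. The only other STAT-related letters found in the family were a STAT6-type site in *Stat5a* at chr11:100749939-100749948, positions -238 to -229 from its start.
Stat4: aatgtcttcaGAAAGTGAAAtttagaacgg
Stat5a: acatttcaacTTCTGCAGAAaaggttcagg

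The STAT6-type letters occurred in 6.81% of promoters. The general STAT site, TTC and GAA with any 3 bases between them, occurred in 8.81% of promoters and in none of the 6 members, which says only that these letters are not in this window. A match of letters is a description of the sequence and was not tied to binding.

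*Stat6*, the factor through which IL-4 and IL-13 act, was higher with melatonin. It lies on chromosome 10 from 127477821 to 127496862 on the plus strand, on the same chromosome as *Stat2*. The normalized counts were 3396, 3651 and 3320 in the vehicle samples and 5386, 4880 and 4232 in the melatonin samples. All melatonin values were above the highest vehicle value of 3651, and they differed among themselves more than the vehicle values did. The mean rose from 3456 ± 174 to 4833 ± 578 (SD, n = 3 each), a log2 fold change of 0.48 (SE 0.10, 95% interval 0.26 to 0.70, adjusted p = 0.0041 in limma).

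*Stat3*, which carries the signals of IL-6, IL-10 and IL-21, was the most abundant member and had the smallest of the increases that passed. It lies on chromosome 11 from 100775924 to 100830450 on the minus strand. The normalized counts were 6716, 6828 and 6986 in the vehicle samples and 9062, 8852 and 7680 in the melatonin samples. Melatonin replicate 3 lay nearest to the vehicle samples, and the groups did not overlap. The mean rose from 6843 ± 136 to 8531 ± 745 (SD, n = 3 each), a log2 fold change of 0.31 (SE 0.08, 95% interval 0.13 to 0.50, adjusted p = 0.013 in limma). This call was lost without vehicle replicate 1 (0.30, adjusted p = 0.055) or 2 (0.31, adjusted p = 0.051), and after a correction for transcript length, added after the data had been seen, the log2 fold change was 0.17 with an adjusted p of 0.068.

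*Stat5a* and *Stat5b* encode the closely related factors of the IL-2, IL-7 and TSLP receptors, the growth and survival receptors of ILC2s. *Stat5b* was called lower with melatonin and *Stat5a* was not, but both lay near the threshold and each changed sides of it under other settings. They lie beside each other on chromosome 11, *Stat5b* from 100671556 to 100741589 on the minus strand and *Stat5a* from 100750177 to 100776065 on the plus strand, with 8587 bases between them. The normalized counts of *Stat5b* were 1908, 2051 and 2061 with vehicle and 1595, 1782 and 1590 with melatonin. The lowest vehicle value, 1908, was above the highest melatonin value, 1782. Its mean fell from 2007 ± 85.6 to 1656 ± 109 (SD, n = 3 each), a log2 fold change of -0.28 (SE 0.08, 95% interval -0.46 to -0.09, adjusted p = 0.021 in limma). The call did not hold without the mean-variance trend of limma (adjusted p = 0.053) or without vehicle replicate 2 (-0.26, adjusted p = 0.08) or 3 (-0.26, adjusted p = 0.075), and after a correction for GC content, added after the data had been seen, the log2 fold change was -0.15 with an adjusted p of 0.19. After a correction for transcript length, likewise added, it was -0.42 with an adjusted p of 0.0024.

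The normalized counts of *Stat5a* were 1238, 1136 and 1184 with vehicle and 738, 1030 and 1050 with melatonin. Melatonin replicate 1 was far below the other 5 samples, and the other melatonin samples lay just under the lowest vehicle value of 1136. The mean was 1186 ± 51.4 in vehicle and 939 ± 175 in melatonin samples (SD, n = 3 each), a log2 fold change of -0.35 (SE 0.14, 95% interval -0.66 to -0.05, adjusted p = 0.057 in limma). It was called lower without melatonin replicate 3 (-0.44, adjusted p = 0.035), under upper quartile scaling (adjusted p = 0.038), quantile normalization (adjusted p = 0.044) and voom (adjusted p = 0.049). Without melatonin replicate 1 it was -0.19 (adjusted p = 0.069). After a correction for GC content, added after the data had been seen, it was -0.22 (adjusted p = 0.23), and after one for transcript length -0.48 (adjusted p = 0.026). With only the 4 libraries that held Y-linked transcripts it was -0.68, more than 1.5 times the value over all 6. Melatonin replicate 1 is the only melatonin sample among these 4.

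Reads of the *Stat5* pair could not always be told apart, because their coding sequences were identical at 90.7% of aligned bases, while the other 14 pairs of members were identical at 58.2% to 65.5%. The pair shared 608 stretches of 50 bases, 15.6% of those in *Stat5a* and 12.0% of those in *Stat5b*, and the longest identical run covered 324 coding bases, positions 571 to 894 counted from the start codon in both genes. The 60 coding bases around the start of this run are shown because a read that lies wholly within the run fits both genes. The capital marks the only position in the window at which the genes differ, which is the base before the run.
Stat5a: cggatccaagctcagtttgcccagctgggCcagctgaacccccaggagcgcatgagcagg
Stat5b: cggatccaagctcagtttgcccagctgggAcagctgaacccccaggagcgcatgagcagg

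The authors' algorithm divides such reads between the genes by estimate, and how it divided them was not tested. *Stat5a* and *Stat3* also overlap by 142 bases at their ends on opposite strands, and their values moved in opposite directions.

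**Figure D2:**
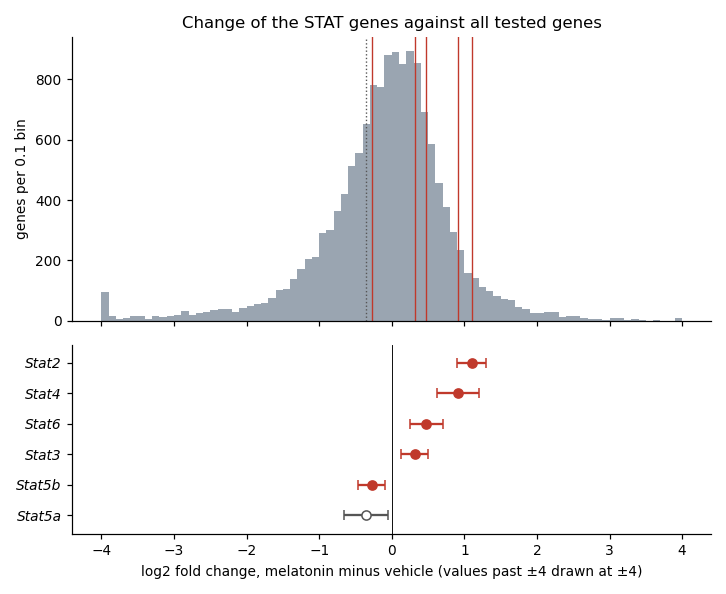
Change of the STAT genes beside that of all genes. The upper panel is a histogram of the log2 fold change (melatonin minus vehicle) of the 14419 tested genes, with lines at the STAT genes. The lower panel gives each STAT gene's log2 fold change with its 95% interval, filled where the adjusted p is under 0.05. Stat2 (1.10) and Stat4 (0.91) lie in the right flank of the histogram, and the other members lie nearer its centre.

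Set against all genes, the changes of *Stat3*, *Stat5a* and *Stat5b* were ordinary in size. Over all tested genes the size of the log2 fold change, in either direction, had a median of 0.45, which *Stat2*, *Stat4* and *Stat6* exceeded and the other 3 did not. *Stat6* did so narrowly, at percentile 52.6 of size, beside 83.5 for *Stat2* and 77.5 for *Stat4*. The percentile of signed change was 93.8 for *Stat2*, 91.2 for *Stat4*, 78.2 for *Stat6* and 69.4 for *Stat3*. It was 34.6 for *Stat5b* and 30.8 for *Stat5a*. The median signed change of all tested genes was -0.0046.

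The melatonin samples varied more than the vehicle samples in every member. The coefficient of variation was between 1.98% (*Stat3*) and 5.03% (*Stat6*) in vehicle, and between 6.59% (*Stat5b*) and 19.0% (*Stat4*) in melatonin samples. Melatonin replicate 1 held the highest value of all 6 samples for *Stat2*, *Stat3*, *Stat4* and *Stat6* and the lowest for *Stat5a*. It is the library that lay apart on the second principal component. Without it, the log2 fold changes were 1.07 for *Stat2*, 0.76 for *Stat4*, 0.40 for *Stat6*, 0.27 for *Stat3* and -0.25 for *Stat5b*, and each of these calls was kept.

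Whether the members responded by different amounts was asked with the ratio of each pair within a sample, which does not depend on the scaling of the libraries. The ratio changed without overlap between the groups in 13 of 15 pairs, for each of which the exact two-sided permutation test gave its smallest possible p of 0.1 (0.115 after adjustment over the 15 pairs), so no pair could pass a threshold of 0.05. The share over pairs of all genes was not computed, and 60.4% of single genes did not overlap, so this count is not read as particular to the family. The largest changes set the interferon and IL-12 factors against the STAT5 factors. *Stat2* relative to *Stat5a* had log2 ratios of -0.41, -0.39 and -0.46 in the vehicle samples and 1.43, 0.94 and 0.73 in the melatonin samples. In normalized counts *Stat2* was therefore the lesser of these transcripts in each vehicle sample and the greater in each melatonin sample, a change of 1.45 on the log2 scale. The same order held per kilobase of transcript. The change was 1.38 for *Stat2* relative to *Stat5b*, 1.26 for *Stat4* relative to *Stat5a* and 1.19 for *Stat4* relative to *Stat5b*.

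Among the members that rose, the log2 ratio changed by 0.62 for *Stat2* relative to *Stat6*, by 0.78 for *Stat2* relative to *Stat3* and by -0.16 for *Stat3* relative to *Stat6*, each without overlap between the groups. The ratio of *Stat2* to *Stat4* overlapped between the groups (a change of 0.19, pooled SD 0.18, exact permutation p = 0.4), and it changed by 0.06 without melatonin replicate 2 and by 0.31 without melatonin replicate 1. The ratio of *Stat5a* to *Stat5b* likewise overlapped (a change of -0.08, pooled SD 0.20, exact permutation p = 0.9), with values of -0.62, -0.85 and -0.80 in the vehicle samples and -1.11, -0.79 and -0.60 in the melatonin samples, and its change ran from -0.19 without melatonin replicate 3 to 0.06 without melatonin replicate 1.

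**Figure D3:**
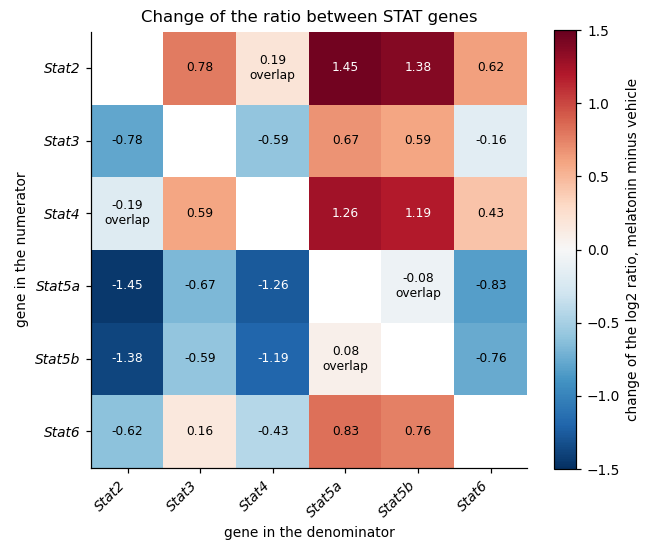
Change of the log2 ratio between each pair of STAT genes, melatonin minus vehicle, with the numerator in rows and the denominator in columns. Red marks a ratio that was higher with melatonin and blue a lower one, and "overlap" marks pairs in which the groups overlapped, which were Stat2 with Stat4 and Stat5a with Stat5b.

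Levels can be compared between genes only per length, and for this the normalized counts were divided by the length of the canonical transcript in kilobases. On this scale *Stat3* stood first in vehicle samples at 1498 ± 29.7, followed by *Stat6* at 900 ± 45.3, *Stat5b* at 394 ± 16.8, *Stat5a* at 299.6 ± 13.0, *Stat2* at 197 ± 9.10 and *Stat4* at 118 ± 5.14 (SD, n = 3 each). Neighbours in this order did not overlap in any vehicle sample. In melatonin samples *Stat3* (1868 ± 163) and *Stat6* (1259 ± 151) again led, *Stat2* stood next at 422 ± 31.3 and above *Stat5b* at 325 ± 21.4, and *Stat5a* (237 ± 44.1) and *Stat4* (224 ± 42.6) were last. The ranges of *Stat5a* (186 to 265) and *Stat4* (193 to 273) overlapped, so their order in melatonin samples is not resolved. The order depends on the length used: per kilobase of coding sequence, *Stat4* (425 ± 18.5) stood above *Stat2* (320.0 ± 14.8) in vehicle, since the *Stat4* transcript has 8062 bases of which 2244 are coding. On that scale *Stat4* (806 ± 153), *Stat5b* (702 ± 46.3) and *Stat2* (687 ± 50.9) followed *Stat3* and *Stat6* in melatonin samples with overlapping values, and *Stat5a* (395 ± 73.4) was last.

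The summed level of the 6 genes per kilobase was 3374, 3443 and 3404 in the vehicle samples and 4601, 4451 and 3955 in the melatonin samples, with no overlap and a mean that was 27.3% higher. The make-up of this sum also differed. *Stat2* made up 5.77% ± 0.32 of it in vehicle and 9.73% ± 0.14 in melatonin samples, and *Stat4* 3.47% ± 0.18 and 5.17% ± 0.80. The change for *Stat4* depended on the length used, at 1.70 points here, 3.17 per kilobase of coding sequence and 2.96 without the length. *Stat5b* made up 11.6% ± 0.41 and 7.52% ± 0.62, and *Stat5a* 8.80% ± 0.47 and 5.53% ± 1.35. The share of *Stat6* was 26.4% ± 1.13 and 29.0% ± 1.36 (SD, n = 3 each throughout). For these 5 genes the groups did not overlap (exact permutation p = 0.1 each). The share of *Stat3* was 44.0% ± 0.83 in vehicle and 43.1% ± 0.51 in melatonin samples and overlapped (exact permutation p = 0.2), although its level rose. The change in its share was -0.92 points, and -0.44 without vehicle replicate 3.

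**Figure D4:**
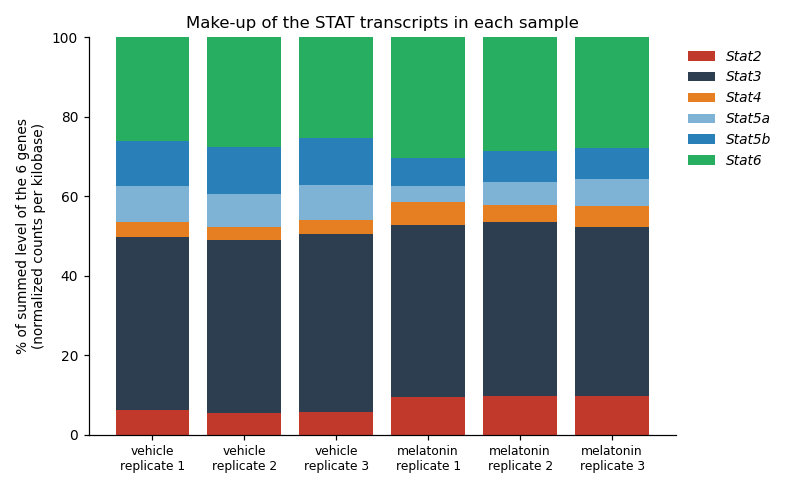
Share of each STAT gene (vertical axis, percent) in the summed level of the 6 genes, in normalized counts per kilobase of transcript, for each of the 3 vehicle and 3 melatonin samples. The Stat2 band widens from 5.77% to 9.73% on average, the Stat5a and Stat5b bands narrow, and the Stat3 band keeps a width near 44.0%.

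Genes with a pattern over the 6 samples like that of a STAT gene were looked for among 9988 other genes whose mean was 100 normalized counts or more, by the Euclidean distance between centred log2 values. Nearest to *Stat2* were *H2-T11-ps* (0.12), *Mfsd4b4* (0.13) and *Lrpap1* (0.14), and nearest to *Stat4* were *Nqo2* (0.08), *Laptm4b* (0.10) and *Prkcd* (0.11). Nearest to *Stat6* were *Rhot1* (0.04), *Crbn* (0.07) and *Tbk1* (0.07), and nearest to *Stat3* were *Kansl2*, *2610005L07Rik* and *Kansl2-ps*, each at 0.07. *Brd1* (0.08), *Cebpz* (0.10) and *Pinx1* (0.10) were nearest to *Stat5a*, and *Tars2* (0.05) and *Nelfa* (0.08) were near to *Stat5b*. The distance between *Stat5a* and *Stat5b* themselves was 0.41, which placed *Stat5b* at rank 1150 by nearness to *Stat5a*. These distances describe 6 samples from 2 groups and much of each pattern is the difference between the groups.

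Flanking genes were read to see whether whole neighbourhoods moved. *Nab2*, a corepressor of EGR factors that overlaps the end of *Stat6* by 77 bases on the other strand, had 479, 517 and 526 normalized counts in vehicle and 1114, 805 and 761 in melatonin samples, a log2 fold change of 0.80 (adjusted p = 0.0023 in limma). Only 28 stretches of 50 bases in the *Stat6* transcript also lie in *Nab2* exons. *Lrp1*, a lipoprotein receptor on the other side of *Stat6*, moved the other way, from 53.5 ± 7.0 to 15.7 ± 5.49 (-1.76, adjusted p = 0.0029). *Pan2*, an mRNA deadenylase subunit downstream of *Stat2*, rose from 483 ± 33.7 to 762 ± 79.9 (0.65, adjusted p = 0.0017). *Apon*, upstream of *Stat2*, stood at 2.92 ± 0.95 and 9.53 ± 4.71, with an adjusted p of 0.078. On chromosome 11, *Ghdc* beside *Stat5b* (-0.20, adjusted p = 0.22) and *Cavin1* beside *Stat3* (0.64, adjusted p = 0.18) were not called. Of these 6 flanking genes 3 were called, beside 49.2% of all genes.

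Upstream of the STAT factors stand the receptor chains and the Janus kinases. Of 24 receptor chains tested, 7 were higher and 11 lower with melatonin, with a median log2 fold change of -0.41, beside 24.5% higher, 24.7% lower and a median of -0.0046 over all genes. Both chains of the interferon gamma receptor and a chain of the type I interferon receptor were among those that rose. *Ifngr2* rose from 519 ± 38.0 to 1611 ± 322 (1.62, adjusted p = 7.4e-05), *Ifnar1* from 1118 ± 86.3 to 2711 ± 357 (1.27, adjusted p = 8.3e-05), and *Ifngr1* by 0.88 on the log2 scale (adjusted p = 0.0024), while *Ifnar2* was not called (0.29, adjusted p = 0.11).

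Among the chains of receptors that signal to STAT5, *Il7r* had 2071, 2102 and 1811 normalized counts in vehicle and 1655, 743 and 700 in melatonin samples. Melatonin replicate 1 stood between the vehicle samples and the other melatonin samples, and the log2 fold change was -1.06 (adjusted p = 0.013). *Il2ra* (-0.77, adjusted p = 0.008), *Il2rb* (-0.69, adjusted p = 0.00036), *Il9r* (-0.40, adjusted p = 0.0043) and *Crlf2*, the TSLP receptor chain (-0.43, adjusted p = 0.016), were also lower. The chain they share apart from *Crlf2*, *Il2rg*, was higher (0.43, adjusted p = 0.024). *Csf2rb*, the shared chain of the IL-3, IL-5 and GM-CSF receptors, fell from 578 ± 47.0 to 53.5 ± 42.2 (-3.80, adjusted p = 0.00088), with the caution that it has a near-identical paralog with which reads may be shared. Its GM-CSF receptor partner *Csf2ra* was not called (-0.05, adjusted p = 0.83). *Il4ra*, the IL-4 receptor chain that feeds STAT6, had a log2 fold change of -0.08 (adjusted p = 0.43). *Il12rb1*, an IL-12 receptor chain, fell from 6058 ± 186 to 4077 ± 215 (-0.57, adjusted p = 0.00044). Among the more abundant chains of the IL-10 and IL-6 family receptors, *Il10ra* (-0.85, adjusted p = 0.0011) and *Il27ra* (-0.77, adjusted p = 0.0015) were lower. *Il6st* (0.84, adjusted p = 0.00057) and *Il10rb* (0.45, adjusted p = 0.0021) were higher. *Il6ra* stood at 6.88 ± 3.57 and 14.1 ± 9.67 normalized counts in vehicle and melatonin samples.

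Of the 4 Janus kinases, 3 rose and none fell, beside 24.5% higher and 24.7% lower over all genes. The number higher was 2 without vehicle replicate 1, vehicle replicate 2 or melatonin replicate 2. *Jak2*, the kinase of the interferon gamma, IL-12 and GM-CSF receptors, had 822, 1119 and 1460 normalized counts in vehicle and 3984, 3578 and 2257 in melatonin samples. The groups were separate with a wide spread in both, and the log2 fold change was 1.53 (SE 0.24, adjusted p = 0.0012). *Jak1* rose from 8542 ± 194 to 13337 ± 1360 (0.64, adjusted p = 0.00064) and *Tyk2* from 1766 ± 214 to 2407 ± 327 (0.44, adjusted p = 0.016). *Jak3*, which is bound to the shared chain encoded by *Il2rg*, had a log2 fold change of 0.01 (adjusted p = 0.91).

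Of 18 inhibitors of the pathway, which act on the kinases, the receptors or the STAT proteins, 7 were higher and 3 lower, with a median of -0.04, beside 24.5% higher and 24.7% lower over all genes. The number lower was 5 without melatonin replicate 1 and 1 without vehicle replicate 3. *Socs3*, the feedback inhibitor of STAT3-activating receptors, had 4150, 4389 and 4262 normalized counts in vehicle and 985, 1916 and 1852 in melatonin samples. All melatonin values were less than the lowest vehicle value, and the log2 fold change was -1.49 (SE 0.22, adjusted p = 0.00081). *Socs2* rose from 1870 ± 36.2 to 3405 ± 183 (0.86, adjusted p = 7.7e-05), *Pias3*, an inhibitor of STAT3, from 297 ± 10.7 to 623 ± 54.1 (1.06, adjusted p = 0.00015) and *Socs5* from 81.1 ± 15.4 to 169 ± 43.9 (1.04, adjusted p = 0.006). Of 9 cofactors 1 was higher and 2 were lower (1 without vehicle replicate 2 and 4 without melatonin replicate 3), beside 24.5% and 24.7% of all genes. These were *Ncoa1*, a coactivator (1.25, adjusted p = 0.0037), *Hdac1*, a histone deacetylase (-0.43, adjusted p = 0.0022), and *Nmi*, which binds STAT proteins (-0.35, adjusted p = 0.015). *Irf9*, the DNA-binding partner of STAT2, stood at 988 ± 106 and 1061 ± 173 normalized counts in vehicle and melatonin samples (SD, n = 3 each, log2 fold change 0.10, adjusted p = 0.57).

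Downstream, lists of genes that are known targets of each factor were read by their counts, with some genes on more than 1 list. Of 28 interferon-stimulated genes, the targets of STAT2, 6 were higher and 6 lower, with a median of 0.07, and these shares are near the 24.5% and 24.7% of all genes. There were 3 higher and 5 lower without vehicle replicate 3, and 6 higher and 9 lower without melatonin replicate 1. *Dhx58* (0.96, adjusted p = 0.015) and *Herc6* (0.95, adjusted p = 0.00093) were higher, and *Isg20* (-1.31, adjusted p = 0.011) and *Lgals3bp* (-0.88, adjusted p = 0.0011) lower.

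Of 15 STAT3 targets 2 were higher and 9 lower, with a median of -0.49, beside 24.5% higher and 24.7% lower over all genes. *Il10* had 928, 908 and 772 normalized counts in vehicle and 8.4, 40.4 and 61.3 in melatonin samples, a log2 fold change of -4.90 (SE 0.57, adjusted p = 0.00028). *Socs3* is given above, *Tnfrsf4*, which encodes OX40, changed by -1.87 (adjusted p = 0.00072), and *Ahr*, the aryl hydrocarbon receptor, rose by 1.74 (adjusted p = 0.00011).

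Of 8 STAT4 targets none was higher and 5 were lower, with a median of -2.07, beside 24.5% higher and 24.7% lower over all genes. With genes of a mean under 100 left out, 4 genes of the list remained and 2 were lower. *Gzmb*, which encodes granzyme B, had 2770, 3247 and 2197 normalized counts in vehicle and 165, 128 and 139 in melatonin samples, a log2 fold change of -4.23 (SE 0.16, adjusted p = 1.5e-06). *Furin*, a proprotein convertase, changed by -0.95 (adjusted p = 0.00074). *Ifng* had 76.5, 32.8 and 37.8 normalized counts in vehicle and was at 0 in each melatonin sample, which against 3 counts per library is at least 16.2-fold lower, and *Il12rb2*, a chain of the IL-12 receptor, was likewise at least 11.6-fold lower. The median was the same with these 2 genes set at their bounds. The sum of NK and ILC1 markers was lower as well, at 19.6 to 30.6 in melatonin samples against 203 to 266 in vehicle. The part of such cells in this list was not tested.

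Of 24 STAT5 targets 8 were higher and 8 lower, with a median of 0.05, beside 24.5% higher and 24.7% lower over all genes. Those that rose included *Socs2*, *Cish* (0.31, adjusted p = 0.012), *Pim2* (0.69, adjusted p = 0.00039), *Bcl2* (0.41, adjusted p = 0.0028) and *Bcl2l1* (0.68, adjusted p = 0.0015). Those that fell included the cytokines *Lif* (-3.25, adjusted p = 3.2e-05) and *Il13* (-2.22, adjusted p = 3.1e-05), the receptor chain *Il2ra* and the feedback inhibitor *Socs1* (-0.29, adjusted p = 0.014), and the kinase gene *Pim1* was not called (0.04, adjusted p = 0.71). *Tnfrsf4* and *Ncoa1*, with the values given above, are on this list as well.

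Of 16 STAT6 targets none was higher (1 without vehicle replicate 3) and 9 were lower, with a median of -0.61, beside 24.5% higher and 24.7% lower over all genes. *Il24* had 808, 750 and 657 normalized counts in vehicle and 0, 12.0 and 21.1 in melatonin samples (-6.80, adjusted p = 0.0006), and *Il4* fell from 331 ± 21.5 to 193 ± 64.6 (-0.84, adjusted p = 0.02). *Retnla*, which encodes RELM alpha, stood at 258, 31.9 and 357 in vehicle and at 1.87, 3.28 and 29.2 in melatonin samples (-4.33, SE 1.04, adjusted p = 0.0084). The epithelial gene *Sftpc* (155, 122 and 389 in vehicle) was likewise lowest in replicate 2 and highest in replicate 3. Macrophage and dendritic cell markers summed to 1406 to 1593 in vehicle and 364 to 829 in melatonin samples. The part of such other cells in this list was not tested. *Gata3*, the ILC2 lineage factor, was not called (0.07, adjusted p = 0.67). Thus, while *Stat3*, *Stat4* and *Stat6* RNA rose, the called members of their target lists were mostly or wholly lower, and which of these genes are targets in aILC2s was not tested here. These lists share genes with the cytokine list below and were chosen with earlier results of these data known, so they are not independent support.

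Cytokines that lymphocytes make and that activate STAT proteins were lower in 9 of 13 tested, with none higher (1 without melatonin replicate 1) and a median of -1.96, beside 24.5% higher and 24.7% lower over all genes. *Il24*, *Il10* and *Lif* are given above, and *Il22* had 265, 305 and 284 normalized counts in vehicle and 0, 2.19 and 16.1 in melatonin samples, a log2 fold change of -6.23 (SE 0.83, adjusted p = 0.00051). *Il21*, *Ifnb1*, *Tslp*, *Il12b*, *Il7* and *Il3* were not listed, so the levels of these inputs were not analysed here.

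**Figure D5:**
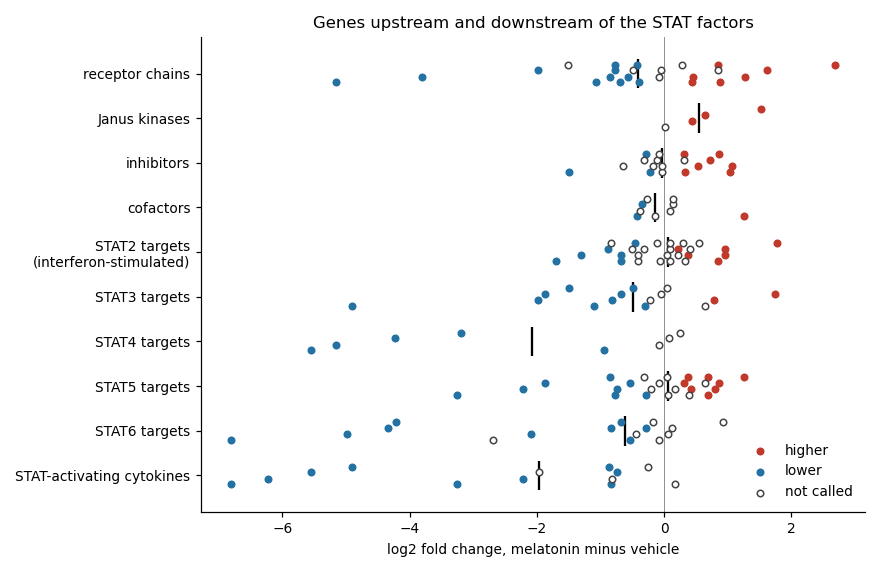
Log2 fold change (horizontal axis, melatonin minus vehicle) of each tested gene in the lists upstream and downstream of the STAT factors. Red points were called higher, blue points lower and open points not called at an adjusted p of 0.05, and the vertical bar is the median of the list. Genes at 0 in all melatonin samples are drawn at their fitted value, which is not a bound. The medians run from -2.07 for STAT4 targets to 0.54 for the Janus kinases.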

How the data were processed

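Per the study's methods, RNA of cultured aILC2s was made into cDNA with a SMARTer Ultra Low Input kit, and the authors used Partek Flow to trim reads, STAR to align them to mm39 and an expectation and maximization step to assign them to Gencode genes, dropped genes with low counts and scaled by the median ratio method. The deposited signal is thus an estimated count over a size factor of its sample, here called a normalized count. Between 72.0% and 73.7% of values under 60 were whole multiples of 1 read within 0.01, so whole reads were not recovered and no count model was used. Estimated counts are the deposited values divided by the value of 1 read. Intervals cover the spread between samples.

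After adding a pseudocount of 1, which understates the change of low genes, log2 values were fitted with limma 3.58.1 under R 4.3.3, using lmFit and a trended eBayes. The fit covered the 14419 genes that reached 10 in 1 or more samples, and Benjamini-Hochberg adjustment ran over all of them with a threshold of 0.05. The script was tested on simulated data. Ratios and shares were tested by exact two-sided permutation of 3 samples against 3. Replicates differed by more than counting noise (chi-square per degree of freedom 6.34 to 37.2 within and 87.5 to 189 between groups), so none was a copy. Files were read with Python 3.11.15, pandas 2.3.3 and numpy 2.4.6, sequences with Biopython 1.88, and figures were drawn with matplotlib 3.10.9.

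Names, positions, transcripts and sequences came from GENCODE release M39 on GRCm39, the assembly also called mm39, and 16334 of 16381 identifiers had a name. Coding sequences were aligned in place of proteins, for which no table was used here. The members and lists were chosen with earlier results of these data known, and the lists are not independent support. Genes were named by rule: all members and Janus kinases, from each list up to 4 genes with the largest change past the threshold at a mean of at least 100, the 3 nearest patterns and the flanking genes on chromosomes 10 and 11. *Ifngr1*, *Ifnar2*, *Il2ra*, *Il2rb*, *Il2rg*, *Il9r*, *Crlf2*, *Csf2ra*, *Il4ra*, *Il12rb1*, *Il10ra*, *Il10rb*, *Il27ra*, *Il6st*, *Il6ra*, *Irf9*, *Ifng*, *Il12rb2*, *Cish*, *Socs1*, *Pim1*, *Pim2*, *Bcl2*, *Bcl2l1*, *Gata3*, *Sftpc* and *Epcam* were added for their roles after their values were seen. The alternatives are given with their effects in the closing section. Some genes, 1 of the family among them, are not reported here.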

Additional observations from a re-analysis of the deposited data

How the results depend on the processing

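The direction of all 6 STAT genes was kept under every alternative run: other pseudocounts, filters, scalings and weights, no mean-variance trend, voom, a replicate block, each sample left out, and, chosen after the data had been seen, corrections for transcript length and GC content and the 4 libraries with Y-linked transcripts. The calls of *Stat2*, *Stat4* and *Stat6* were kept in all of these, leaving aside the 4 libraries with Y-linked transcripts. That fit holds melatonin replicate 1 as its only melatonin sample and is read for effect size only. Leaving out each sample gave log2 fold changes of 1.07 to 1.16 for *Stat2*, 0.76 to 1.01 for *Stat4*, 0.40 to 0.57 for *Stat6*, 0.27 to 0.39 for *Stat3*, -0.33 to -0.25 for *Stat5b* and -0.44 to -0.19 for *Stat5a*. *Stat3* was not called without vehicle replicate 1 or 2 or after the length correction (0.17). *Stat5b* was not called without the trend (-0.28, adjusted p = 0.053), without vehicle replicate 2 or 3, or after the GC correction (-0.15). After the length correction *Stat5b* was -0.42 (adjusted p = 0.0024 in limma). *Stat5a* was called lower under upper quartile scaling (-0.40), quantile normalization (-0.41), voom (-0.36), without melatonin replicate 3 (-0.44) and after the length correction (-0.48). It was -0.22 (adjusted p = 0.23 in limma) after the GC correction and -0.68 in the libraries with Y-linked transcripts. The cause of these differences was not tested. The number of STAT genes called lower, 1 in the main analysis, was accordingly 2 under upper quartile scaling, quantile normalization, voom and the length correction. It was 0 without the trend, after the GC correction and at an adjusted p under 0.01, and 0 to 2 when each sample was left out. The number called higher was 3 or 4 throughout, again leaving aside the 4 libraries with Y-linked transcripts. At an adjusted p under 0.01, 2188 genes of the table were called higher and 2267 lower, beside 3529 and 3565.

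The replicate numbers did not pair the samples (correlations of same-numbered samples of -0.11, 0.14 and -0.19). With the replicate number as a block, the log2 fold changes were 1.10, 0.31, 0.91, -0.35, -0.28 and 0.48 for *Stat2*, *Stat3*, *Stat4*, *Stat5a*, *Stat5b* and *Stat6*, no STAT call changed, and 3160 genes were called higher and 3278 lower. Per kilobase of coding length, the share of *Stat4* changed by 3.17 points and that of *Stat2* by 3.36, beside 1.70 and 3.96 per kilobase of transcript, and without the length that of *Stat4* changed by 2.96. The ratio of *Stat5a* to *Stat5b*, which overlapped between the groups, changed sign without melatonin replicate 1 (0.06, beside -0.08), and no other pair ratio changed direction. Of 180 list counts under alternatives, 8 moved by more than 1.5 times, among them STAT4 targets called lower, 2 of the 4 left once genes with a mean under 100 were dropped. Libraries were numbered by group in the labels, and the names of the vehicle libraries carry a suffix that those of the melatonin libraries lack. A batch that follows these names cannot be told apart from melatonin, and 3 samples a group limit what can be detected.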
